A study of Mus musculus with 3 samples.

Results

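The 10 genes described here are genes of fat tissue, chosen by platform gene symbol: Ucp1, Cidea, Cidec, Plin4, Adipoq, Retn, Car3, Thrsp, Fabp4 and Lpl. They were chosen with their levels on these arrays known, as genes that read high in the control kidney and as possible signs of attached fat or of fat loss. All 10 were measured, of 19938 genes in all, each by 1 probe set. Of the 10, 8 stood at least 2-fold above both other arrays on control, where 0.534% of all 11432 genes bright on control did; this describes the choice and is no evidence for it. Lpl was as high on the NTS/PGE2 array as on the control array, and Plin4 was highest on the NTS array.

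Adipocytes store triglyceride in a lipid droplet whose surface carries perilipins and CIDE proteins. They take up fatty acids that lipoprotein lipase frees from circulating lipoproteins, and they secrete hormones such as adiponectin. Brown adipocytes also express the uncoupling protein UCP1, which lets protons back into the mitochondrial matrix and so releases heat. Fat lies around the kidney and in its hilum, and in mice some of it is brown.

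Gene expression was measured in kidney of female CBL/6 mice of 8 to 10 weeks on Affymetrix Mouse Gene 1.0 ST arrays, which read a transcript through probes spread over its exons. The control array came from non-treated mice. The NTS array came from mice injected once with nephrotoxic serum (NTS), a sheep antiserum that provokes an immune nephritis; the dose was 13.5 ug for each g of weight. The NTS/PGE2 array came from mice that had the serum in the same way and, daily from day 2, the lipid mediator prostaglandin E2 (PGE2) at 5 ug per g. Treated mice were killed on day 7. There was 1 array per group, and the labels do not say how many animals an array stands for or how much surrounding tissue was trimmed from a kidney. No difference therefore has a replicate check, no test was run, and every value is only as precise as so few arrays allow. As a yardstick within the arrays, 460 genes with 2 bright probe sets gave a technical SD for a single difference of 0.20 for NTS relative to control, 0.12 for NTS/PGE2 relative to control and 0.21 for NTS/PGE2 relative to NTS on the log2 scale. It leaves out the spread between animals. All 11 measured genes of a list of kidney markers were bright on the control array. On NTS 9 of them were lower than on control, 5 at least 2-fold (all genes 5.42%), and their median was -0.80. The water channel Aqp2 was lowest at -1.74 and Cdh16 highest at 0.09. On NTS/PGE2 the median was 0.14 and 0 differed 2-fold from control (all genes 0.659% lower and 0.0607% higher).

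The sequences before the transcription start are shown for the 3 genes with the largest differences that had an entry, and for Plin4, which did not share their pattern. They are from RefSeq, build GRCm38.p6, 250 bases each, 5′ to 3′ on the gene's strand, ending at the base before the annotated start. Ucp1 is at chr8:83290098-83290347 on the plus strand, Retn at chr8:3655520-3655769 on the plus strand, Adipoq at chr16:23146286-23146535 on the plus strand and Plin4 at chr17:56109783-56110032 on the minus strand. Capitals mark a match to one of the searched motifs, in either orientation.
Ucp1: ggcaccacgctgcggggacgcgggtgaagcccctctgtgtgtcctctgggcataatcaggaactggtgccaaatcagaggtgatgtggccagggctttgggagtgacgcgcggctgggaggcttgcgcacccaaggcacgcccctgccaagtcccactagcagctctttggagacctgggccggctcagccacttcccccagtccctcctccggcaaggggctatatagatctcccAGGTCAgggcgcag
Retn: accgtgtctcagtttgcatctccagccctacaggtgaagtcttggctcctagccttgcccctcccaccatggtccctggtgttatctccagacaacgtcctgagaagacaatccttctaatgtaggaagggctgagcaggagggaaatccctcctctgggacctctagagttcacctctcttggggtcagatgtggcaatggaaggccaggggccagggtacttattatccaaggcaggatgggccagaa
Adipoq: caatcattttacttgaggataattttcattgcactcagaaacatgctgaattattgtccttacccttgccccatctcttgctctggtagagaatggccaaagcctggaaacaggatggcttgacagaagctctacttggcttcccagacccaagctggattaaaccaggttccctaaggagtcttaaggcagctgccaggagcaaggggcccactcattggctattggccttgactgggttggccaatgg
Plin4: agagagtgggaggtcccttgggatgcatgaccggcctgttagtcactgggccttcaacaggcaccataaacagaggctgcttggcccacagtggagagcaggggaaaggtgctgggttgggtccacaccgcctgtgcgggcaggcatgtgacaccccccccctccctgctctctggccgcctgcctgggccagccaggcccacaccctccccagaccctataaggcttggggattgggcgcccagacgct
Of the 10 genes, 6 had an entry, with 7 windows. The core site bound by PPAR and retinoid X receptors, AGGTCA, was found in the Ucp1 window, starting 14 bases before the transcription start; 14% of all 32851 windows of this length hold it on either strand. The C/EBP motif TTGCNNAA was found in 1 of the 2 Cidec windows, as TTGCTCAA, and in 9.56% of all windows. The TATA box TATAAA stood in 12.4% of all windows, the direct repeat of the core site with a single base between (DR1) in 0.0335% and the palindromic NF1 motif in 0%, and none of these stood in the windows of the 6 genes. The repeat contains the core site. A match is a description of the letters and not of a bound factor.

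Most of these genes read far higher on the control array than on either nephritis array. On the NTS array, 9 of the 10 read at least 2-fold below control, where 5.42% of all 11778 genes bright enough to be compared did; 0 read at least 2-fold above it (all genes 2.7%). On the NTS/PGE2 array, 8 read at least 2-fold below control, where 0.659% of 11534 genes did, and 0 at least 2-fold above it (all genes 0.0607%). The median difference of the 10 was -3.75 for NTS relative to control and -4.11 for NTS/PGE2 relative to control, beside 0 over all genes in both. The choice of the genes used these contrasts, so the counts and medians describe them and support nothing. Both comparisons share the control array. In whole kidney, fewer fat cells and less RNA per fat cell cannot be told apart.

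**Figure D1:**
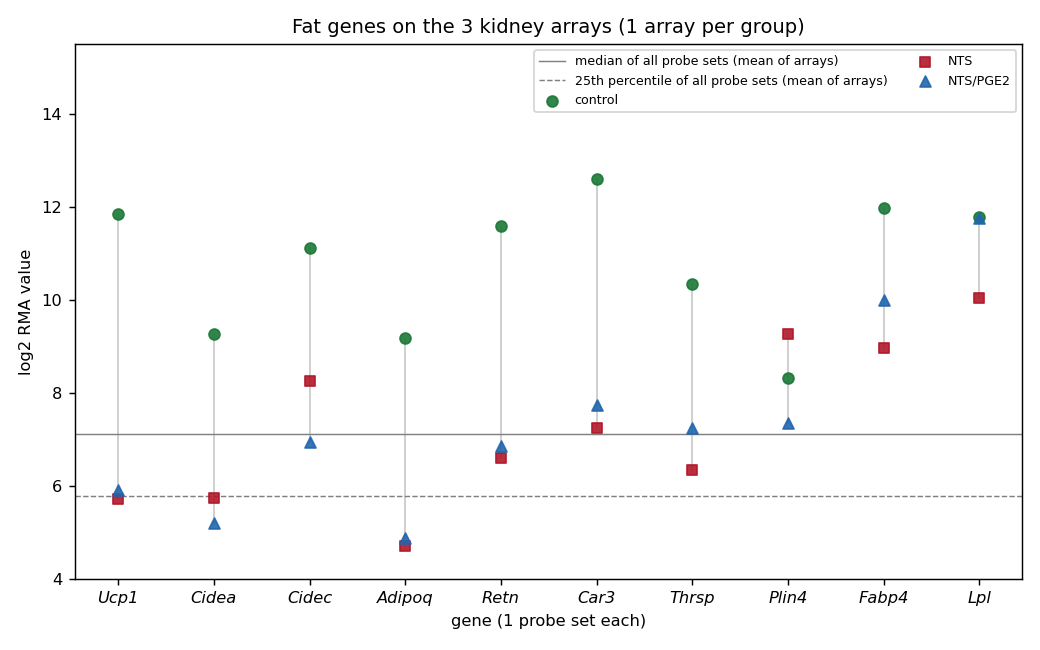
Log2 RMA value (vertical axis) of each of the 10 fat genes (horizontal axis) on the control, NTS and NTS/PGE2 arrays; each point is 1 array, and grey lines join a gene's lowest and highest value. Of the 10 genes 9 are highest on control, Lpl has its control and NTS/PGE2 points on each other at 11.77 and 11.75, and Plin4 has its NTS point on top at 9.27.

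Ucp1 had the widest gap of the 10 genes, and Cidea, also of brown fat, a smaller one than Car3, Retn and Adipoq. Ucp1, the uncoupling protein of brown fat, read 11.84 on control, 5.72 on NTS and 5.91 on NTS/PGE2. Those are differences of -6.12 and -5.93, or 69.6-fold and 60.8-fold, and Ucp1 had the largest negative difference of all compared genes in both. The NTS value was under the 25th percentile there, 5.78, so the 69.6-fold is set against a value that may be background. Cidea, a droplet protein abundant in brown fat, read 9.25, 5.73 and 5.20. Both lower values lay below the 25th percentile of their arrays, and the differences were -3.52 and -4.06. Neither gene was bright enough on the treated arrays to compare NTS/PGE2 with NTS.

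Among other genes of the brown fat list, those with large differences ran the same way. The mitochondrial subunit gene Cox8b read 11.42 on control, 8.43 on NTS and 8.94 on NTS/PGE2. Elovl3, a fatty acid elongase induced in brown fat by cold, read 8.44, 5.73 and 5.56, with both treated values below the 25th percentile. Cox7a1, a cytochrome oxidase subunit of muscle and brown fat, read 10.95, 8.31 and 9.80, so its NTS/PGE2 value lay nearer to control. Most of the list showed small differences. With Ucp1 and Cidea left out, 16 genes of the list were measured. Of these, 3 were at least 2-fold lower against control on each treated array (all genes 5.42% on NTS, 0.659% on NTS/PGE2). The medians of the 16 were -0.31 on NTS and -0.33 on NTS/PGE2. The genes named next were picked after their values were seen. Ppargc1a, a coactivator of mitochondrial biogenesis, read 11.07, 10.79 and 10.93. The regulator Prdm16 read 8.61, 8.51 and 8.61. Zic1 and Lhx8, transcription factors of the brown fat between the shoulder blades, read between 5.79 and 6.04 on all 3 arrays, near the 25th percentile. Of the UCP1 relatives, Ucp3 read 6.67, 6.19 and 6.01, Slc25a14 6.79 on every array, Slc25a27 7.52, 7.66 and 7.80, and Slc25a30 10.76, 11.59 and 11.07. None of these 4 differed 2-fold between any arrays.

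The droplet proteins did not run together. Cidec (Fsp27), which fuses droplets into the large one of white fat, read 11.11 on control, 8.25 on NTS and 6.94 on NTS/PGE2. It thus differed from control by -2.86 and -4.17, and from NTS to NTS/PGE2 by -1.31, a 2.49-fold step further down. In that last comparison 6 of the 10 genes were bright enough; 2 were at least 2-fold lower on NTS/PGE2 (all genes 3.28%) and 2 at least 2-fold higher (all genes 4.15%). Plin4, a perilipin that coats small nascent droplets, read 8.31 on control, 9.27 on NTS and 7.35 on NTS/PGE2. It was the 1 gene of the 10 above control on the NTS array, by 0.96, just short of 2-fold and just past it with arrays centred on the median of genes, and it lay below control on the NTS/PGE2 array by a difference of -0.96. From NTS to NTS/PGE2 it differed by -1.92, or 3.78-fold.

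The relatives of these droplet genes were split as well. Plin1, the perilipin of adipocytes, read 8.76 on control and 7.08 on both treated arrays. Plin2, the perilipin of most other cells, read 10.99, 13.18 and 11.04, a difference of 2.19 for NTS relative to control and of -2.14 for NTS/PGE2 relative to NTS. Plin3 read 9.53, 9.69 and 9.23, and Plin5, of oxidative tissues, 7.69, 7.80 and 7.69. Cideb, the CIDE gene of liver and other epithelia, read 12.69, 11.91 and 12.67, so of the 3 CIDE genes it was close to control on NTS/PGE2 while Cidea and Cidec were not. Over the 15 other measured genes of lipid droplets and lipolysis, the median was 0.11 for NTS relative to control and -0.30 for NTS/PGE2 relative to control. Of these, 1 gene, Plin1, was at least 2-fold lower in each comparison (all genes 5.42% and 0.659%). Hilpda, a hypoxia-induced droplet protein that inhibits lipolysis, read 6.31, 7.24 and 6.01, and the lipase inhibitor G0s2, picked after its values were seen, 8.70, 9.29 and 8.37. Fitm1, which helps partition fat into droplets, read 10.15, 9.25 and 9.79. Lipe, hormone-sensitive lipase, also picked after its values were seen, read 9.98, 9.34 and 9.29.

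**Figure D2:**
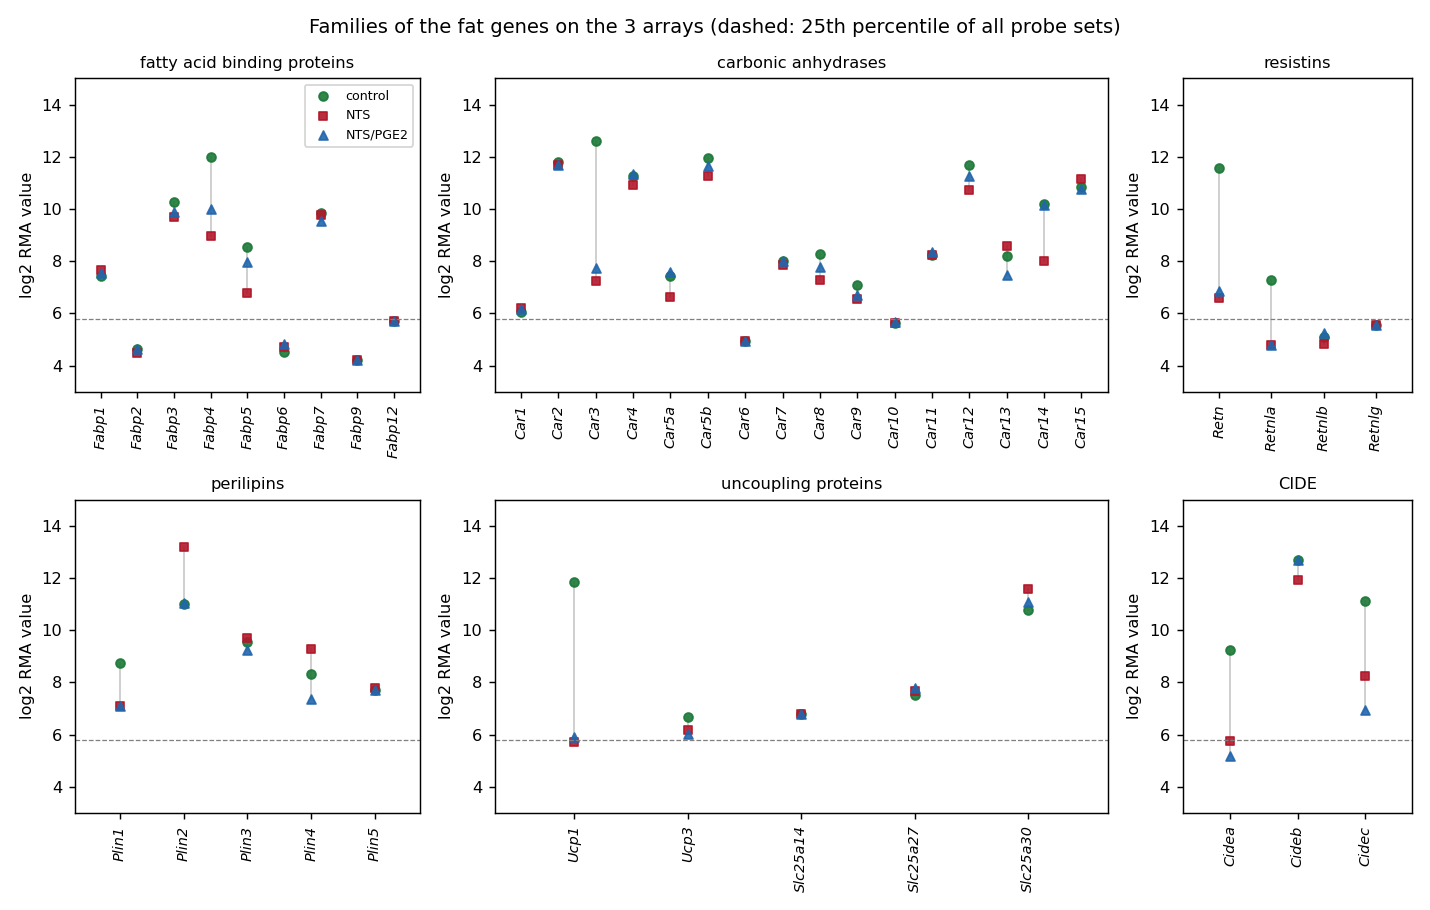
Log2 RMA values (vertical axes) of the measured members of 6 gene families on the control, NTS and NTS/PGE2 arrays, 1 point per array, with the mean of the arrays' 25th percentiles dashed. Fabp4, Car3, Retn, Retnla, Plin1, Ucp1, Cidea and Cidec have a control point well above both others, Plin2 and Plin4 have the NTS point on top, and most relatives lie close together.

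Both adipocyte hormones among the genes read low on the treated arrays. Adipoq, which encodes adiponectin, read 9.18 on control, 4.70 on NTS and 4.88 on NTS/PGE2, with differences of -4.48 and -4.30. Both low values lay below the 25th percentile of their arrays; with values raised to that level the differences were -3.41 and -3.39. Retn, which encodes resistin, read 11.58, 6.60 and 6.85, or 31.4-fold and 26.4-fold below control. The treated arrays differed from each other by 0.18 for Adipoq and 0.25 for Retn, and neither gene was bright enough there to be compared.

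Of the resistin family, Retnla, made in white fat and by alternatively activated macrophages, read 7.30 on control, 4.78 on NTS and 4.80 on NTS/PGE2. Both treated values of Retnla lay below the 25th percentile of their arrays. Retnlb, a gut gene, read 5.11, 4.82 and 5.24 and Retnlg 5.57 on every array, all below the 25th percentile. Of the adiponectin receptors, Adipor1 read 10.93, 10.94 and 10.92 and Adipor2 10.66, 9.73 and 10.30. Cdh13 (T-cadherin), which also binds adiponectin, read 8.41, 7.84 and 8.28. Of the 8 measured C1q/TNF relatives of adiponectin, C1qtnf3 differed most, at 8.75, 7.62 and 8.82. C1qtnf1 read 8.30, 8.78 and 8.33, C1qtnf2 7.29, 6.79 and 7.09, C1qtnf4 7.08, 7.41 and 7.08, and C1qtnf9 6.27, 5.79 and 6.27. C1qtnf12 read 10.39, 10.16 and 10.24, C1qtnf6 6.78, 6.83 and 6.83, and C1qtnf7 7.55 on every array. None of the 8 was 2-fold below control on NTS/PGE2.

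Secreted proteins of fat other than Adipoq, Retn and Lpl went several ways, with a median of -0.60 over 11 genes for NTS relative to control and 0 for NTS/PGE2 relative to control. Rbp4, the retinol carrier, read 8.95, 6.55 and 7.65. Itih5, a hyaluronan-binding protein, read 8.88, 6.75 and 8.73. Angptl4, an inhibitor of lipoprotein lipase, read 9.96, 11.57 and 10.73, so it stood above control on both treated arrays. The leptin gene Lep, picked after its values were seen, read 5.65, 5.62 and 5.65, below the 25th percentile on every array.

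Car3, a carbonic anhydrase abundant in fat and skeletal muscle, read 12.61 on control, 7.25 on NTS and 7.74 on NTS/PGE2. These were 41.0-fold and 29.1-fold below control, next after Ucp1 in both comparisons. Skeletal muscle markers were low throughout: 2 of 11 reached the brightness filter, and their differences from control ranged from -0.79 to 0.26 on NTS and from -0.97 to 0.16 on NTS/PGE2. The lowest was Myl1 and the highest Acta1 on NTS and Myod1 on NTS/PGE2. The kidney's own carbonic anhydrases did not follow Car3. Cytosolic Car2 read 11.79, 11.67 and 11.67, membrane-bound Car4 11.25, 10.93 and 11.34, Car12 11.68, 10.73 and 11.26, and Car15 10.83, 11.14 and 10.77. Car14 read 10.19, 8.00 and 10.14, low on NTS and at control on NTS/PGE2. Car5b, a mitochondrial form, read 11.96, 11.26 and 11.66, Car8 8.27, 7.30 and 7.80, and Car13 8.21, 8.59 and 7.47. Among the dimmer relatives, Car5a read 7.43, 6.63 and 7.58, Car7 7.99, 7.86 and 7.99, Car9 7.09, 6.56 and 6.71, and Car11 8.25, 8.25 and 8.34. Car1 read 6.04, 6.20 and 6.17, while Car6 at 4.95 and Car10 between 5.64 and 5.69 lay below the 25th percentile on every array. Of the 16, Car3 was the 1 gene at least 2-fold below control on NTS/PGE2 (all genes 0.659%).

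Thrsp (Spot 14), a nuclear protein that promotes fatty acid synthesis, read 10.34 on control, 6.35 on NTS and 7.23 on NTS/PGE2. The differences from control were -3.99 and -3.10, and NTS/PGE2 stood 0.89 above NTS. Its close relative Mid1ip1 read 8.34, 8.24 and 8.26. The 22 genes of the fatty acid and triglyceride synthesis list other than Thrsp had a median of -0.55 for NTS relative to control. Of these, 8 were at least 2-fold lower (all genes 5.42%) and 0 higher (all genes 2.7%). For NTS/PGE2 relative to control the median was -0.25, with 3 lower (all genes 0.659%) and 0 higher (all genes 0.0607%). The 3 were Fasn, fatty acid synthase, at 11.88, 9.11 and 9.88; Acaca, which makes malonyl-CoA, at 9.68, 7.84 and 7.77; and Agpat2, an acyltransferase of triglyceride synthesis, at 11.37, 9.29 and 9.68.

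Other enzymes of that list were low on the NTS array alone. Gpd1, which makes glycerol 3-phosphate, read 12.20, 10.63 and 11.97. Acss2, acetyl-CoA synthetase, read 10.25, 8.95 and 10.33, Pcx, pyruvate carboxylase, 11.88, 10.63 and 11.86, and the elongase Elovl6 11.61, 10.27 and 11.32. These 4 were the genes of the list at least 2-fold higher on NTS/PGE2 than on NTS (all genes 4.15%). The kidney makes several of these enzymes itself.

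The fatty acid handling genes Fabp4 and Lpl lay closer to control on NTS/PGE2 than on NTS. Fabp4 (aP2), the fatty acid binding protein of adipocytes, also made by capillary endothelium and macrophages, read 11.98 on control, 8.96 on NTS and 10.00 on NTS/PGE2. It was 8.11-fold below control on NTS and 3.95-fold on NTS/PGE2, and NTS/PGE2 stood 2.05-fold above NTS. Lpl, lipoprotein lipase, made by adipocytes, muscle and also in kidney, read 11.77, 10.03 and 11.75. It was 3.33-fold below control on NTS, while NTS/PGE2 differed from control by -0.02, within the spread between probe sets, and from NTS by 1.72. Fabp4 and Lpl were the 2 genes of the 10 at least 2-fold higher on NTS/PGE2 than on NTS.

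Endothelial markers were low on NTS as well, and near control on NTS/PGE2. Of 20, 18 were lower on NTS than on control, 9 at least 2-fold (all genes 5.42%), with a median of -0.96. From NTS to NTS/PGE2, 18 were higher, 10 at least 2-fold (all genes 4.15%), with a median of 0.93. Against control on NTS/PGE2 their median was -0.10 and 0 differed 2-fold, whereas Fabp4 differed by -1.98. The pattern was not particular to endothelium. All 11 kidney markers were higher on NTS/PGE2 than on NTS, 5 at least 2-fold, with a median of 0.76. Of 9 markers of stromal progenitors 7 were higher and 1 lower, with a median of 1.00. The summed linear signal of the endothelial markers was 19011 on control, 7735 on NTS and 17079 on NTS/PGE2, and none lay below the 25th percentile of any array. The lowest difference on NTS was that of Tek, the angiopoietin receptor, at -2.26, and the highest that of Vwf, at 0. The part of endothelium in the Fabp4 and Lpl values was not tested.

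Of the other fatty acid binding proteins, Fabp5 read 8.55, 6.79 and 7.98, Fabp3 10.25, 9.69 and 9.89, Fabp7 9.85, 9.78 and 9.54 and Fabp1 7.41, 7.67 and 7.56. Fabp2, Fabp6, Fabp9 and Fabp12 lay below the 25th percentile on every array, with values of at most 4.64, 4.82, 4.21 and 5.72. Of the lipase relatives, Lipg read 6.22, Liph 5.56 and Lipi 4.07 on every array. The other 11 measured genes of fatty acid uptake had a median of -0.31 for NTS relative to control and -0.20 for NTS/PGE2 relative to control, with 0 at least 2-fold different in the latter. The fatty acid translocase Cd36 read 11.52, 10.51 and 11.32, the glycerol channel Aqp7 10.95, 9.93 and 10.98, and caveolin 1 (Cav1) 9.97, 8.95 and 9.07.

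Genes that define the adipocyte and were not among the 10 also read lower on the treated arrays, by smaller differences. Of 18 measured, 16 were lower on NTS than on control and 0 higher, with a median of -0.92. On NTS/PGE2, 14 were lower than on control and 2 higher, with a median of -0.66. Low values on NTS were not particular to these genes. The kidney and endothelium marker lists had medians of -0.80 and -0.96 for NTS relative to control. For NTS/PGE2 relative to control their medians were 0.14 and -0.10. Over all genes both medians were 0. Pparg, the master regulator of fat cell formation, read 8.78, 7.57 and 7.58. Adig (adipogenin) read 7.73, 6.03 and 6.15 and the adipocyte galectin Lgals12 8.68, 7.07 and 7.64. The adipogenic transcription factors as a list had medians of -0.01 for NTS and -0.13 for NTS/PGE2 relative to control over 16 genes. Pparg was the 1 gene of that list at least 2-fold below control on NTS/PGE2 (all genes 0.659%). Cebpd, also induced in inflammation, read 7.78, 9.42 and 7.95, the B cell and fat factor Ebf1 9.36, 7.88 and 8.68, and the liver X receptor gene Nr1h3 9.40, 8.17 and 9.27. Cebpa, picked after its values were seen, read 8.49 on every array; such equal values come out of the summary of probes and do not show that a gene was the same.

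**Figure D3:**
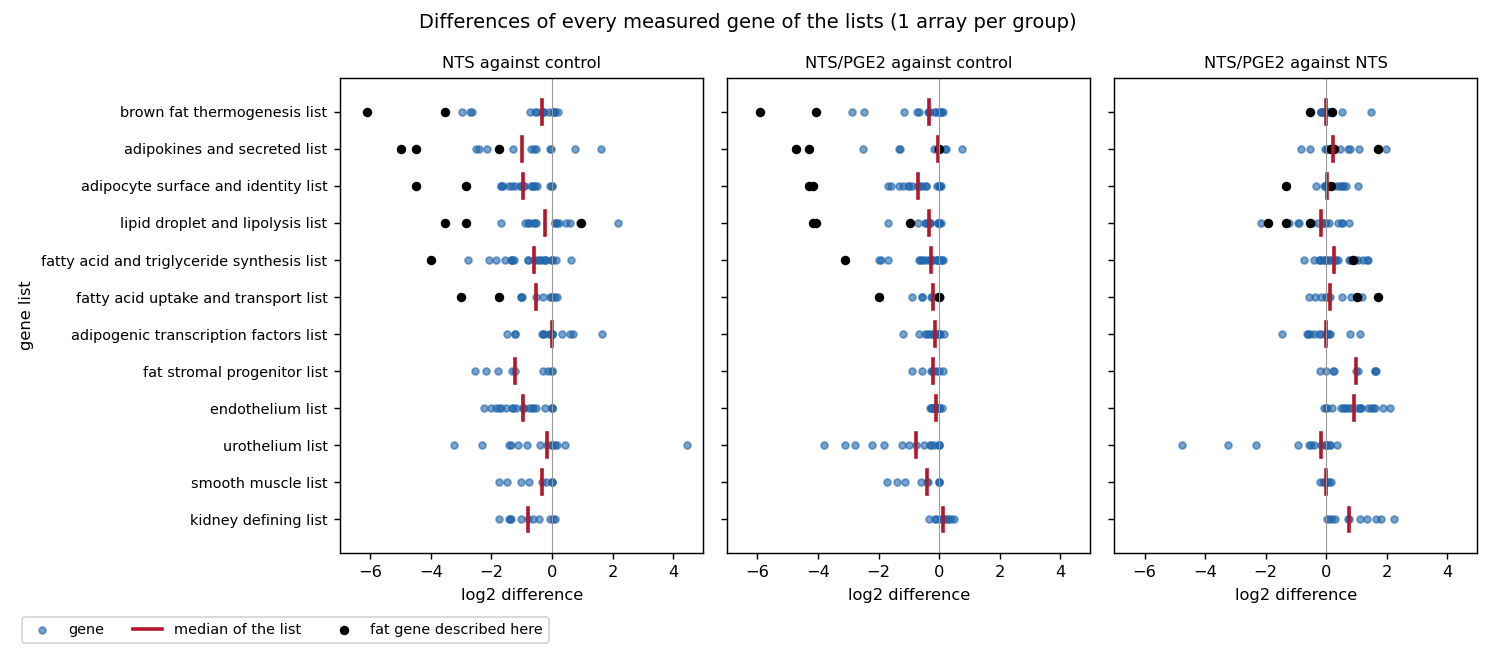
Log2 differences (horizontal axes) of every measured gene of 12 lists in the 3 comparisons, with the fat genes described here in black, other genes in blue and each list's median as a red bar. Most black points lie far to the left in both comparisons with control, except Plin4 and, on NTS/PGE2, Lpl, while the endothelium and kidney lists lie left of 0 on NTS and near 0 on NTS/PGE2.

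Over all fat lists joined, with the 10 genes left out, 99 genes were measured. Of these, 68 were lower and 22 higher on NTS than on control, with a median of -0.49, and 71 were lower and 15 higher on NTS/PGE2 than on control, with a median of -0.27. Those at least 2-fold lower numbered 28 and 14, and those at least 2-fold higher 3 and 0. Over all 19938 genes, 6029 were lower and 6540 higher on NTS than on control, and 5486 lower and 6124 higher on NTS/PGE2. Before the filter on dim genes, 672 were 2-fold lower and 355 higher on NTS, and 84 and 7 on NTS/PGE2. After it, 25 of 86 genes of the joined lists were at least 2-fold lower on NTS (all genes 5.42%) and 3 higher (all genes 2.7%). On NTS/PGE2 12 of 85 were lower (all genes 0.659%) and 0 higher (all genes 0.0607%). The lists also hold enzymes and regulators that kidney cells use, so they are not fat-specific.

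**Figure D4:**
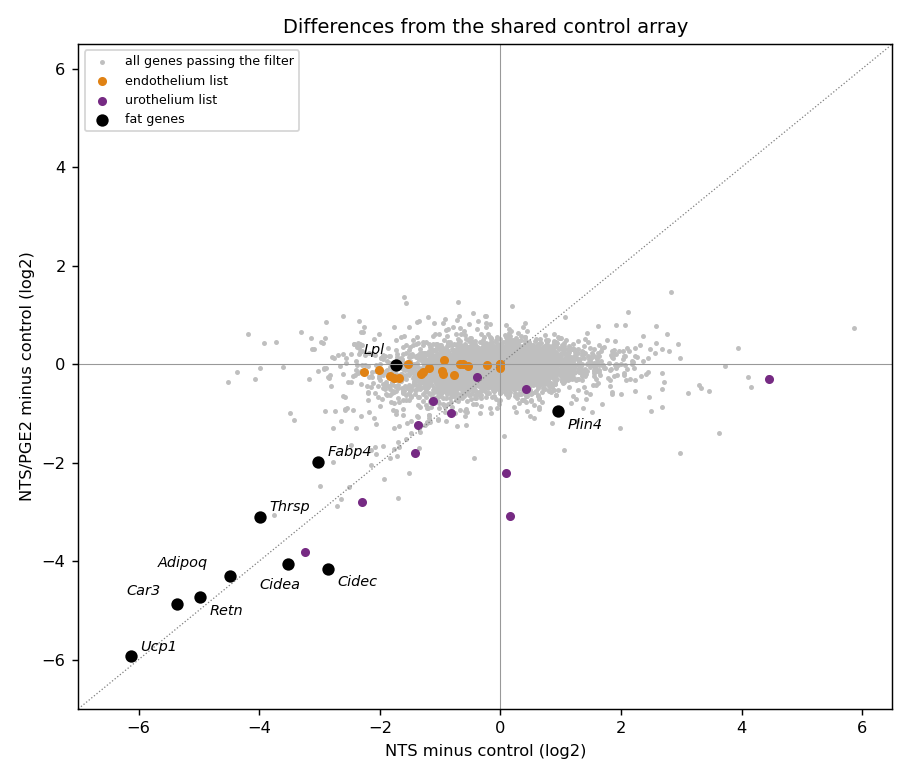
Each point is a gene, at its log2 difference of NTS from control (horizontal axis) and of NTS/PGE2 from the same control (vertical axis), with the dotted line where both are equal. Ucp1, Car3, Retn, Adipoq, Cidea, Cidec and Thrsp lie at the lower left, Fabp4 lies above them, Lpl lies on the horizontal line with the endothelium genes, and Plin4 lies to the right at 0.96 and -0.96.

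To find genes with the most similar pattern, genes bright on control were ordered by the control value minus the higher of the NTS and NTS/PGE2 values. Of 11432 such genes, 61, or 0.534%, stood at least 2-fold above both other arrays, and 8 of the 61 were among the 10 fat genes. In the opposite direction, 2 of 10933 genes bright on both treated arrays, or 0.0183%, stood at least 2-fold below both on control. That filter differs from the filter on control, so the shares are not like for like. The differences of control from NTS and from NTS/PGE2 both use the control array. A high reading of that array alone therefore places a gene among the 61. Of the 53 others, 12 were in a fat list, 4 in the lists of urothelium or mesothelium, 3 in the smooth muscle list and 33 in none of the fixed lists.

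The 15 most similar genes outside the 10 were Psca, Prkar2b, Elovl3, Sptssb, Retnla, Cox8b, Upk1b, Acsm3, Fasn, Cbr2, Acaca, Cyp2b10, Apod, Abcd2 and Cnn1. Of these, 5 were in a fat list. Prkar2b, the regulatory subunit of protein kinase A that predominates in fat, read 10.21, 6.46 and 7.15. Abcd2, a peroxisomal importer of long-chain acyl-CoA that is abundant in fat, read 7.77, 6.05 and 5.91. Sptssb, a small subunit of serine palmitoyltransferase, read 7.59, 4.95 and 4.84, and the medium-chain acyl-CoA synthetase gene Acsm3 7.82, 5.68 and 5.77. Elovl3, Sptssb, Retnla and Acsm3 lay below the 25th percentile on both treated arrays, so their differences are set against values that may be background. Cbr2, a carbonyl reductase, read 9.16, 7.23 and 6.81, the cytochrome P450 gene Cyp2b10 7.86, 5.80 and 6.03, and the lipocalin Apod 8.77, 6.62 and 7.03.

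**Figure D5:**
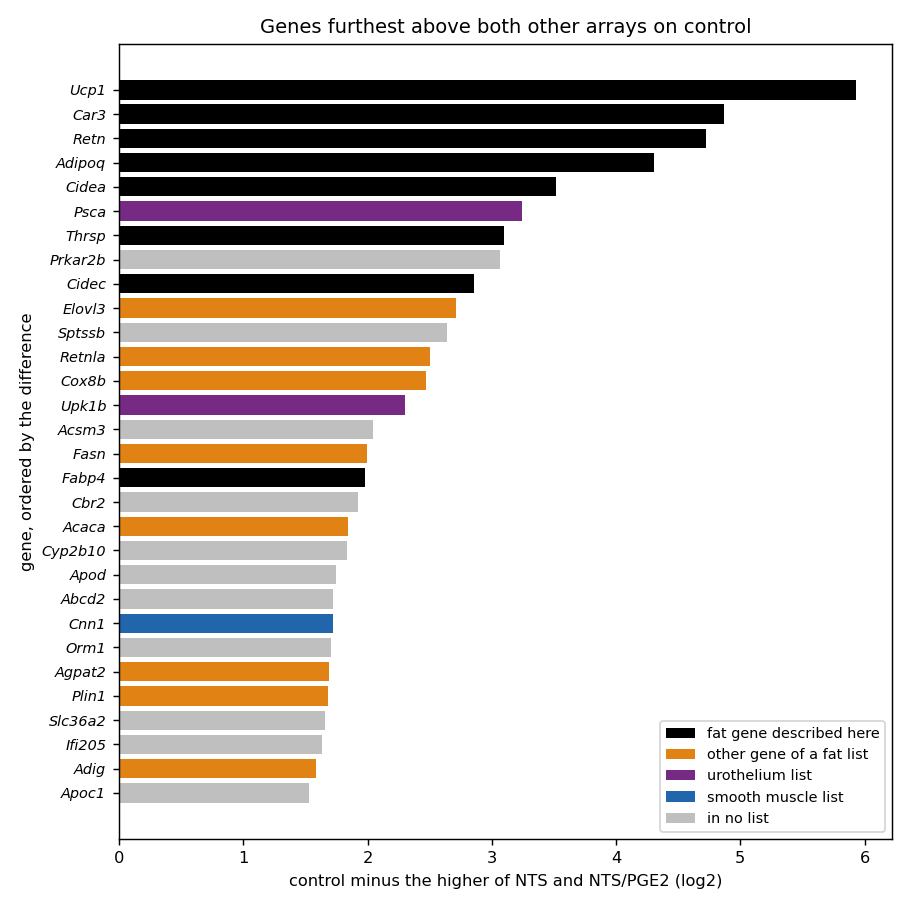
Control value minus the higher of the NTS and NTS/PGE2 values (horizontal axis, log2) for the 30 genes where it was largest, coloured by list. Ucp1 leads at 5.93, the 5 longest bars are all fat genes described here, and Psca of the urothelium list is sixth at 3.24.

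Genes of the lists of urothelium, which lines the kidney's outlet, and of smooth muscle stood among them. Psca, a surface antigen of urothelium, read 10.09, 6.85 and 6.29, and Upk1b, a uroplakin of the urothelial surface, 9.05, 6.75 and 6.25. Of the 15 urothelium markers, 5 were at least 2-fold lower than control on NTS (all genes 5.42%) and 6 on NTS/PGE2 (all genes 0.659%). Those at least 2-fold higher numbered 1 (all genes 2.7%) and 0 (all genes 0.0607%). The summed linear signal of these markers was 8247, 8762 and 2749. Sprr1a, at 11.45, 11.60 and 8.36, was the brightest of them on control and NTS and weighed most in those sums. The list's highest difference on NTS was that of Krt20 at 4.45, a keratin also made by injured tubules. Of 9 smooth muscle markers, 3 were at least 2-fold lower than control on each treated array (all genes 5.42% and 0.659%). The lowest was Cnn1 (calponin) at 8.77, 7.00 and 7.05, and the summed signal was 5823, 3654 and 3543. Myocd, at 6.04 on every array, had the highest difference there, 0. Of 11 mesothelium markers, 2 were at least 2-fold lower on NTS (all genes 5.42%) and 3 on NTS/PGE2 (all genes 0.659%). Those at least 2-fold higher numbered 1 (all genes 2.7%) and 0 (all genes 0.0607%), and the summed signals were 7663, 10657 and 7144. Krt8, at 11.40, 12.62 and 11.25, and Gpm6a, at 11.05, 9.82 and 11.49, were the brightest on control and weigh most in that sum. Msln read 7.05, 7.03 and 7.03, and Lrrn4 and Bnc1 read 6.49 and 5.40 on every array. Msln, Lrrn4 and Bnc1 were picked after their values were seen. Upk3b, also in the urothelium list, was lowest on NTS at -1.36 and Krt8 highest at 1.21. Upk3b was the 1 mesothelium marker at least 2-fold above both other arrays on control. With 1 array per group, tissue attached to the control kidney and a change in the treated kidneys cannot be told apart.

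Markers of cells that accompany adipocytes in fat, and of other tissues such as adrenal cortex and liver, went as follows. Of 9 markers of stromal progenitors, which kidney fibroblasts also express, 5 were at least 2-fold lower than control on NTS (all genes 5.42%). On NTS/PGE2, 0 were at least 2-fold lower (all genes 0.659%). The medians were -1.22 and -0.21 and the summed signals 7863, 3153 and 5983. Decorin (Dcn) had the lowest difference on NTS, -2.55, and Cd248 the highest, 0. Of 11 macrophage markers, 3 were at least 2-fold lower than control on NTS (all genes 5.42%) and 1 higher (all genes 2.7%). On NTS/PGE2, 2 were lower (all genes 0.659%) and 0 higher (all genes 0.0607%). The medians were -0.27 and -0.39. Retnla was the lowest on NTS at -2.52, the lysosomal marker Cd68 the highest at 2.23, and the summed signals were 2912, 2841 and 2248. The markers of adrenal cortex, which lies next to the kidney, were below the filter for all 8 genes. Their differences from control ranged from -0.63 for Mc2r to 0.40 for Hsd3b1 on NTS and from -0.63 to 0.19 for the same genes on NTS/PGE2. The 5 measured genes of the Schwann cell list ranged from 0 for Sox10 to 0.16 for Cnp on NTS, and from -0.31 for Cnp to 0.08 for Sox10 on NTS/PGE2. Of 8 liver genes, Alb was lowest on NTS at -2.29 and Fgb highest at 4.43; on NTS/PGE2 Alb stood at 0.66 and Fgb was lowest at -0.26, with Ahsg highest at 0.67. The 3 measured red cell genes ranged from -2.75 for Alas2 to 0.04 for Epor on NTS, and from -0.96 to 0 for the same genes on NTS/PGE2. The part of these lists in the fat gene values was not tested.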

How the data were processed

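Total RNA of mouse kidney (250 ng, biotin-labelled) was read on 3 arrays, 1 per group, and the labels gave the groups. The authors deposited log2 values from RMA in Affymetrix Expression Console, per the submitters' processing notes; for its version and genome build, nothing is given in the sources used here. This method equalises the arrays' distributions and summarises probes by median polish, which gave equal values on all 3 arrays for 25.4% of 35556 probe sets and can understate small differences. No scanner values were analysed here, so a probe could not be set against its own background. The 25th percentile of each array (5.77 control, 5.78 NTS, 5.79 NTS/PGE2) was used as a mark below which a value may be background.

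Of the probe sets, 21789 named 1 gene in the platform annotation, 1621 named several and 12146 were unnamed here; the first kind alone was used, with probe sets of a gene averaged. Gene IDs of 21698 matched a GRCm38.p6 table, which altered 0 symbols. Comparisons left out genes whose brighter value was under its array's median over probe sets (7.11 control, 7.11 NTS, 7.14 NTS/PGE2); the size rule was a log2 difference of 1 or more, or 2-fold. Counts of lists took all measured genes. The calculation was tested on simulated data. The 10 genes, the gene lists and the rules were chosen with earlier results of these data known. Named genes were the 10, their families, up to 4 further genes per fat list and comparison with the largest differences, the 15 genes most above both other arrays on control, and the lowest and highest gene of each marker list. Python 3.11.15 with pandas 2.3.3 was used.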

Additional observations from a re-analysis of the deposited data

How the results depend on the processing

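There were 7 alternatives, and none turned the direction of a difference of the 10 genes that reached 2-fold. At a 1.5-fold rule the counts over all genes were 1406 lower and 898 higher for NTS relative to control, 248 and 64 for NTS/PGE2 relative to control, and 1045 and 1167 for NTS/PGE2 relative to NTS, and 158 genes stood above both other arrays on control. Among the 10 genes, 1 was then higher on NTS than on control, Plin4, and likewise when arrays were centred on the median of genes; that centring also gave 11 genes higher on NTS/PGE2 than on control. With values raised to the 25th percentile of their array, the median of the 10 genes was -3.44 for NTS and -3.42 for NTS/PGE2 relative to control. Cidea was then -3.46 for NTS/PGE2 relative to control and 0.02 for NTS/PGE2 relative to NTS, and the excess of control over both others was 1.504 for Retnla and 1.79 for Sptssb. Under these alternatives the other counts of the 10 genes stayed within 1.5 times, and the medians of the fat lists moved by less than the spread between probe sets. No replicate could be left out. No paired analysis was possible because each group has 1 array and no test was run.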

Other observations

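Cpt1b, the carnitine palmitoyltransferase of muscle and brown fat, was read here through a probe set that also names Gm44502, so it entered no comparison. That probe set read 10.43 on control, 9.68 on NTS and 10.29 on NTS/PGE2.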
